A study of Homo sapiens with 6 samples.

Results

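The INO80 complex is an ATP-dependent chromatin remodeller that slides nucleosomes along DNA, with roles in transcription, DNA replication and DNA repair. It is built on the INO80 ATPase, with a ring of the AAA+ ATPases RUVBL1 and RUVBL2, actin-related proteins that grip DNA and nucleosomes, and smaller accessory subunits. In yeast, the counterpart of INO80C (Ies6) works together with the actin-related protein Arp5, the counterpart of ACTR5, in a module that the complex needs to slide nucleosomes. The genes described here are 10 subunits of the complex, out of 27689 gene symbols in the deposited table: INO80, INO80B, INO80C, INO80D, INO80E, ACTR5, ACTR8, RUVBL1, RUVBL2 and NFRKB. They were matched by gene symbol and held 24 of the 63714 transcript rows, and all 10 passed the filter of 1 FPKM (sequenced fragments relative to transcript length and to the library's total) in at least 3 libraries that left 13576 genes. The list was drawn up because INO80C had stood out as lower in NACER_ASO than in NC in these same libraries, so the values of that contrast are given as a description, with no test.

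The 6 libraries came from Huh7, a hepatocellular carcinoma line, with 3 labelled NC and 3 labelled NACER_ASO, in which NACER, a liver lncRNA, was knocked down according to the series. The labels do not spell out NC and give no dose or time. Each of sets 2, 5 and 6 held 1 library of each group, and the labels do not say what a set is or whether the sets came from separate cultures. The p-values below therefore reflect the spread between these libraries, which may be technical. The NACER level was not analysed here, and the labels of the groups are taken as given.

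Low FPKM values of single-transcript genes implied depths that differed 1.81-fold between NC set 2, the shallowest library, and NACER_ASO set 5, the deepest. Only 26.7% to 38.0% of low values lay within 2% of whole steps, so these depths are rough. All 8 hepatocyte markers were detected, with sums of 1157 to 5514 FPKM in NC and 1113 to 5642 in NACER_ASO. The sums split by set: both libraries of set 5 were highest, with the apolipoprotein gene APOA1 at 480 and 516 FPKM there against 5.54 to 26.9 in the other 4 libraries. The immune sum, at 73.1 to 537 FPKM, was mostly the lysozyme gene LYZ and CD68, while the leukocyte marker PTPRC stayed under 1 FPKM and the T cell marker CD3E reached 0.192. Bile duct markers (4 of 4 at 1 FPKM in some library) summed to 118 to 261 FPKM, stromal markers (4 of 5) to 1.99 to 42.0 and endothelial markers (0 of 3) to at most 1.07. In set 5 the stromal sum was at most 2.42 FPKM. Within a set, NC and NACER_ASO lay near each other in the hepatocyte sum (2464 and 2786 FPKM in set 2, 5514 and 5642 in set 5, 1157 and 1113 in set 6). These markers and the subunits below both differed among the sets, not all in the same order, and any link between them was not tested. In RNA from a whole culture, fewer cells of a kind and less RNA per cell cannot be told apart.

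In the table INO80C is made up of 3 annotated transcripts, of which variant 2 was lower in NACER_ASO in all 3 sets. The gene lies on chromosome 18 (hg19, 33048291 to 33077955). Matched to GENCODE 29 on GRCh38, variant 2 (NM_194281) has 5 exons and variant 1 (NM_001098817) has 7, because variant 1 holds 2 further coding exons after its first. Together they make up the 108 bases by which the transcript lengths differ in the deposited table. Variant 3 (NM_001308064) starts at another exon and shares the 3 inner exons of variant 2. The junction that sets variant 2 apart from variant 1 joins its first exon directly to its next, on the minus strand at chr18:35480563-35497719 (GRCh38, the ends of the intron's flanking exons). It is shown with 30 bases from each side, the downstream exon in capitals:
variant 2 junction: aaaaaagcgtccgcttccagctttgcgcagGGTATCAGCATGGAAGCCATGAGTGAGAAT
In variant 1 these exons are joined through the added pair.

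INO80C was the one subunit of the 10 whose groups did not overlap. Its summed FPKM was 26.6, 16.1 and 19.7 in NC sets 2, 5 and 6, and 14.0, 10.6 and 12.2 in NACER_ASO sets 2, 5 and 6. Every NACER_ASO library lay below every NC library, with set 5 lowest in both groups. NC averaged 20.8 ± 5.32 FPKM and NACER_ASO averaged 12.2 ± 1.68 FPKM (SD, n = 3 each). Among all genes tested, 0.368% had groups that did not overlap with NACER_ASO lower, and 1.20% with NACER_ASO higher, and nothing is read from INO80C being among the former, since it was chosen for this contrast. Within a set, NACER_ASO stood at 52.5%, 65.8% and 61.6% of NC in sets 2, 5 and 6. On the log2(FPKM + 1) scale, which understates changes of low genes, the differences were -0.88, -0.56 and -0.66, with a mean of -0.70 ± 0.17 (SD, n = 3 sets). The SE of that mean in limma was 0.24 unpaired and 0.085 when libraries were paired through their set. Both are given as a description of spread and cannot serve as a test, since the gene was chosen from this contrast.

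Variant 2 was the INO80C transcript lower in NACER_ASO in all 3 sets. Its FPKM was 25.4, 14.6 and 15.8 in NC sets 2, 5 and 6, and 8.18, 7.64 and 9.02 in NACER_ASO. Of the 23390 transcripts tested, 1.22% had groups that did not overlap with NACER_ASO lower, and 11.7% were lower in all 3 sets, as variant 2 was. The groups did not overlap, and the NACER_ASO libraries lay closer together than the NC libraries. Its log2 differences were -1.53, -0.85 and -0.74 in sets 2, 5 and 6. In the F test among the sets described below, run over transcripts, limma called neither variant 2 (adjusted p = 0.352) nor variant 1 (adjusted p = 0.355), beside 37.7% of all transcripts tested.

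Variant 1, the form with the added exons, had 0.768, 0.913 and 3.95 FPKM in NC sets 2, 5 and 6, and 4.12, 2.15 and 3.07 in NACER_ASO. It was thus higher in NACER_ASO in sets 2 and 5 and lower in set 6, and the groups overlapped. With the rough depths above, these values correspond to about 13.1 fragments in NC set 2 and 24.2 in NC set 5, against 65.9 to 103 in the other 4 libraries. Those counts are over the whole transcript, which differs from variant 2 by 108 bases, so fewer fragments tell these variants apart. Variant 3 lay between 0 and 1.66 FPKM and did not pass the filter. As a share of the INO80C sum, variant 2 took 95.6%, 90.2% and 80.0% in NC sets 2, 5 and 6, and 58.6%, 72.0% and 74.2% in NACER_ASO. The shares did not overlap between the groups, and the gap was widest in set 2 and narrowest in set 6. How often such shares separate the groups in other genes was not computed. The shares come from the values for which INO80C was chosen, so nothing is read from their separation. Estimates for isoforms of 1 gene are not independent of each other, since a fragment given to one is not given to the other.

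**Figure D1:**
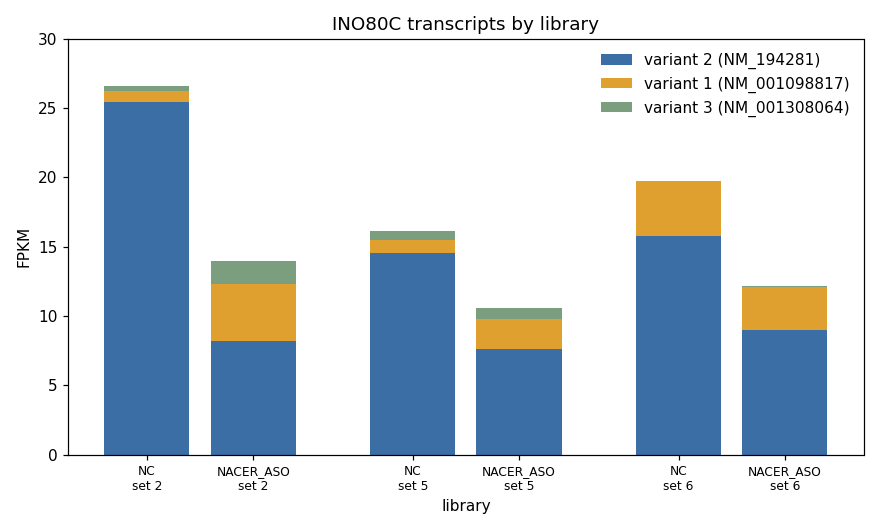
FPKM of the 3 INO80C transcripts (stacked bars, y axis) in each of the 6 libraries (x axis, paired by set). Variant 2 stands at 25.4 FPKM in NC and 8.18 in NACER_ASO of set 2, and the whole bar is shorter in NACER_ASO in each set.

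The other 9 subunits showed smaller and mixed differences. For sets 2, 5 and 6 their median difference between NACER_ASO and NC was -0.10, 0.07 and -0.02. INO80C minus that median was -0.78, -0.64 and -0.64. In each set INO80C was the lowest of the 10. The most negative of the other 9 was INO80B in set 2 (-0.20), INO80 in set 5 (-0.26) and INO80D in set 6 (-0.26). Over all 13576 genes, whose median difference was 0.05, 0.01 and 0.06 in sets 2, 5 and 6, a difference below that of INO80C was found for 181, 204 and 110 genes. INO80C was chosen for being low in this contrast, so nothing is read from its place among the 10 or among all genes.

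The ATPase gene INO80 had 22.7, 16.0 and 20.05 FPKM in NC sets 2, 5 and 6 and 19.8, 13.2 and 18.7 in NACER_ASO. It was lower in NACER_ASO in each set, with differences of -0.18, -0.26 and -0.09, although the groups overlapped, with set 5 low in both. INO80D, an accessory subunit of the animal complex, had 4.41, 3.47 and 2.57 FPKM in NC and 3.76, 2.88 and 1.98 in NACER_ASO. Its differences were -0.19, -0.20 and -0.26, at the lowest levels of the 10, where the log2(FPKM + 1) scale compresses them most. As a share of NC it stood at 85.2%, 83.0% and 77.3%. NFRKB, a subunit absent from the yeast complex, was at -0.10, -0.16 and -0.04, and RUVBL1 was at -0.09, -0.05 and -0.01. ACTR8, an actin-related protein of the DNA-binding module, was the one subunit higher in all 3 sets, by 0.17, 0.07 and 0.07. ACTR5, the partner of INO80C in the yeast module, stayed between 4.55 and 5.73 FPKM, with differences of -0.04, 0.08 and -0.03. The accessory subunit INO80B had 8.68 to 12.6 FPKM and INO80E 27.5 to 43.3, and their differences (-0.20, 0.14 and -0.02, and -0.02, 0.15 and 0.09) did not share a sign over the sets. RUVBL2 was at -0.17, 0.12 and 0.11.

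In all, 5 of the 10 subunits were lower in all 3 sets, beside 11.0% of all genes tested, and 1 was higher, beside 27.2%. The median difference was -0.04 over the 10 and 0.04 over all genes. Limma called 0 of 13576 genes between the groups (0% called), with 20 at an unadjusted p under 0.05. With the set as a block it also called 0, with 1685 at such a p. Since the list was chosen from this contrast, these counts describe the genes and nothing is read from them. The mean differences of RUVBL2 (0.02) and ACTR5 (0.00) changed sign with median-of-ratios scaling (-0.05 and -0.06), which lowered the mean difference of every subunit. That of ACTR5 also changed sign with quantile normalization (-0.06). Leaving out 1 library leaves a set with 1 group, so differences among the sets enter the mean. The mean differences of 7 of the 10 subunits then took either sign. That of ACTR8 ranged from -0.20 without NC set 5 to 0.43 without NACER_ASO set 5, and that of NFRKB from -0.29 without NC set 6 to 0.12 without NC set 5. INO80E ranged from -0.09 to 0.23, RUVBL2 from -0.14 to 0.22, INO80B from -0.15 to 0.10, RUVBL1 from -0.11 to 0.03 and ACTR5 from -0.07 to 0.07. INO80C (-0.86 to -0.52), INO80D (-0.38 to -0.04) and INO80 (-0.31 to -0.01) stayed below 0, the last nearly at 0 without NACER_ASO set 5. For INO80C the sign could not change, because its groups did not overlap. With libraries paired and 1 whole set left out, ACTR8 stayed at 0.07 to 0.12 and NFRKB at -0.13 to -0.07. INO80E and RUVBL1 also kept their sign there, while INO80B, ACTR5 and RUVBL2 did not.

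**Figure D2:**
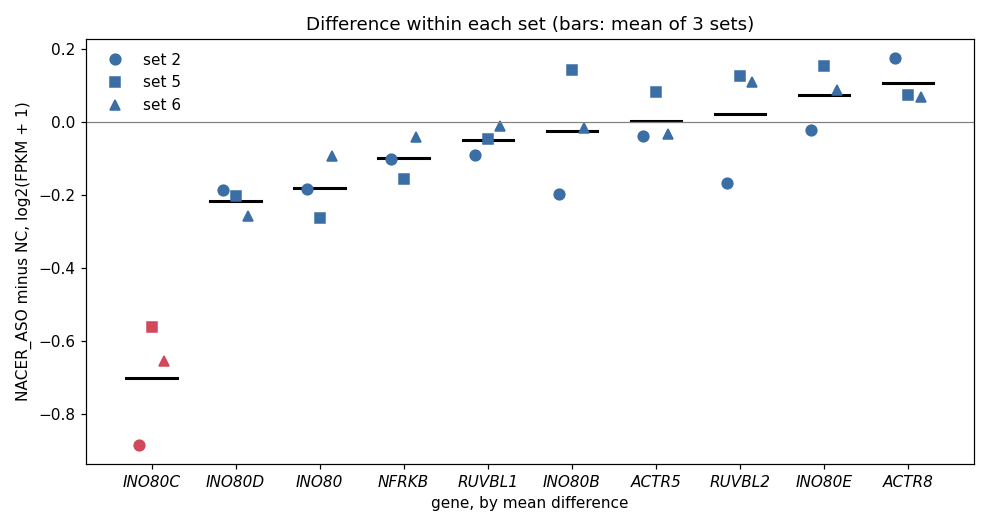
Difference between NACER_ASO and NC on the log2(FPKM + 1) scale (y axis) within set 2 (circles), set 5 (squares) and set 6 (triangles) for the 10 subunits (x axis), with bars at the mean of 3 sets. INO80C (red) lies between -0.88 and -0.56, and the points of the other 9 lie between -0.26 and 0.17.

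FPKM is scaled by length, so levels can be set side by side between genes. The ring ATPases led, RUVBL1 with 73.9 ± 5.94 FPKM (SD, n = 6 libraries) and RUVBL2 with 65.6 ± 12.4. RUVBL1 exceeded RUVBL2 in 4 of 6 libraries, so their order did not hold beyond the spread. Both also serve the SRCAP and TIP60 remodelling complexes and the R2TP co-chaperone, so their level is not that of INO80 alone. INO80E followed with 33.8 ± 6.51 FPKM, below RUVBL2 and above INO80 in 6 of 6 libraries. INO80 (18.4 ± 3.36), INO80C (16.5 ± 5.87) and NFRKB (16.4 ± 4.26) could not be ordered over the 6 libraries, as INO80 exceeded INO80C in 4 and INO80C exceeded NFRKB in 2. Within the groups, INO80C was below INO80 and below NFRKB in 3 of 3 NACER_ASO libraries and in 1 of 3 NC libraries each. INO80B had 10.5 ± 1.68 FPKM, below NFRKB in 4 of 6 libraries and above ACTR8 in 5. ACTR8 had 7.85 ± 2.74 FPKM and exceeded ACTR5 (5.18 ± 0.43) in 4, so none of these neighbours was ordered in all 6. INO80D was lowest with 3.18 ± 0.88 FPKM, under ACTR5 in 6 of 6 libraries. Among the 10, INO80C had rank 4 or 5 in the NC libraries and rank 6 or 7 in the NACER_ASO libraries. These ranks and its order within the groups restate the contrast for which INO80C was chosen, so nothing is read from them.

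**Figure D3:**
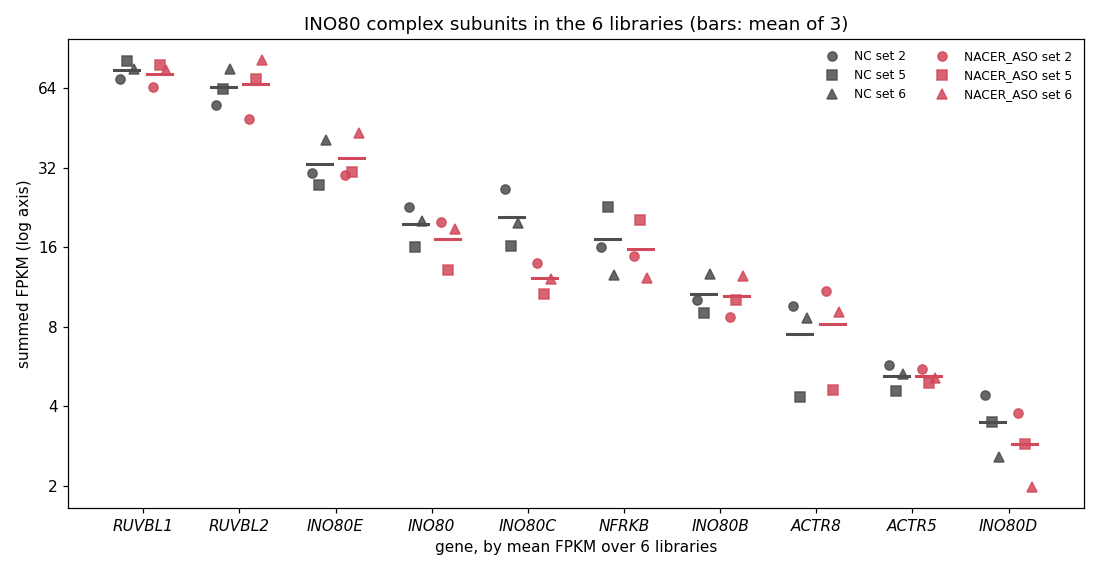
Summed FPKM (y axis, log scale) of the 10 subunits (x axis, by mean level) in NC (grey) and NACER_ASO (red), with 1 point per library, shapes for the sets and bars at the mean of 3. RUVBL1 and RUVBL2 lie between 48.9 and 81.6 FPKM, INO80D lies between 1.98 and 4.41, and the groups separate only for INO80C.

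Within genes, 1 transcript carried most of INO80 (90.1% to 97.2% of the sum), RUVBL1 (96.0% to 98.9%) and RUVBL2 (71.1% to 84.6%). NFRKB was divided between 2 transcripts of nearly equal length, and INO80E between 6. NM_001143835 took 85.03%, 90.8% and 60.3% of NFRKB in NC sets 2, 5 and 6, and 57.4%, 82.98% and 62.5% in NACER_ASO. The groups overlapped in this share. The other, NM_006165, stood at 264%, 166% and 91.8% of its NC level in sets 2, 5 and 6. A lower main transcript beside a higher minor one in sets 2 and 5 was thus not particular to INO80C. INO80B, INO80D, ACTR5 and ACTR8 had 1 transcript each. By hg19 loci, INO80B shares its whole span with the readthrough gene INO80B-WBP1, listed at 0 to 1.28 FPKM. RUVBL1 shares 6899 bases of its span with SEC61A1, which at 135 to 169 FPKM lay above RUVBL1 itself. It also overlaps EEFSEC (6.69 to 10.7 FPKM) and its antisense RNA RUVBL1-AS1 (0.086 to 1.07 FPKM). INO80E and RUVBL2 overlap the ends of DOC2A and LHB, and RUVBL2 also spans MIR6798. The sources used here do not say whether strand was used in the estimates, so these 4 genes are less certain than the other 6, none of which overlapped another symbol.

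The sets differed in most of the subunits, as they did in most genes. This contrast was not used to choose the genes and was tested in limma over all 13576 genes, with the group as a further term and the 2 libraries of a set as its replicates. The F test among the sets called 9 of the 10 subunits (Benjamini-Hochberg adjusted p under 0.05). It also called 81.2% of all genes tested, so the count for the subunits is close to the background. ACTR5 was the exception (adjusted p = 0.214).

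ACTR8 had the widest set difference of the 10 on the values as deposited. It had 9.55, 4.32 and 8.65 FPKM in NC sets 2, 5 and 6 and 10.9, 4.60 and 9.11 in NACER_ASO, so both libraries of set 5 lay below the other 4. Set 5 minus the mean of sets 2 and 6 was -0.95 (limma SE 0.083, 95% confidence interval -1.15 to -0.74, adjusted p = 0.000175). NFRKB went the other way, with 22.8 and 20.3 FPKM in set 5 against 12.2 to 16.0 in the other 4 libraries. Its set 5 difference was 0.60 (SE 0.070, interval 0.43 to 0.78, adjusted p = 0.000545). With median-of-ratios scaling and quantile normalization, the set 5 difference of NFRKB (0.84 and 0.77) was wider than that of ACTR8 (-0.74 and -0.66). Set 5 was thus low in an actin-related subunit and high in NFRKB, and its libraries did not overlap with the others in either gene. The same held for INO80, ACTR5 and RUVBL1, so for 5 of the 10, beside 63.8% of all genes tested.

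Of the 10, 6 differed in set 5, beside 70.7% of all genes. Set 5 was lower in 4 subunits (ACTR8, INO80, INO80C and INO80E), beside 46.6% of all genes, and higher in 2 (NFRKB and RUVBL1), beside 24.1%. INO80 was at -0.46 (SE 0.072, adjusted p = 0.00193 in limma), INO80C at -0.38 (SE 0.090, adjusted p = 0.0103), INO80E at -0.29 (SE 0.067, adjusted p = 0.00977) and RUVBL1 at 0.16 (SE 0.057, adjusted p = 0.0438). The median of all genes in this contrast was -0.22, but -0.0077 with median-of-ratios scaling and 0.015 with quantile normalization. Set 5 differences therefore have to be read against that shift. With those scalings INO80C was at -0.15 and -0.18 and INO80E at -0.046 and -0.12, and neither was called (adjusted p = 0.222 and 0.196, and 0.638 and 0.150), while ACTR8 (-0.74 and -0.66), INO80 (-0.22 and -0.27), NFRKB (0.84 and 0.77) and RUVBL1 (0.41 and 0.23) kept their calls. RUVBL2 was called higher in set 5 with median-of-ratios scaling (0.30), and INO80D with quantile normalization (0.38). The call of RUVBL1 ended without NC set 5 (0.16), NC set 6 (0.15), NACER_ASO set 5 (0.16) or NACER_ASO set 6 (0.18), or with no trend in limma, those of INO80E without either library of set 5 (-0.23 and -0.35), and that of INO80C without NC set 5 (-0.27) or with set as the only term.

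Between set 6 and set 2, 5 of the 10 differed, beside 48.2% of all genes. RUVBL2, INO80E and INO80B were higher in set 6, beside 20.9% of all genes, and INO80D and NFRKB were lower, beside 27.3%. RUVBL2 had 75.7 and 81.6 FPKM in NC and NACER_ASO of set 6 and 55.1 and 48.9 in set 2, a log2 difference of 0.59 (SE 0.093, adjusted p = 0.00450 in limma). INO80E had 40.7 and 43.3 FPKM in set 6 and 30.5 and 30.02 in set 2 (0.46, SE 0.078, adjusted p = 0.00557). INO80D had 2.57 and 1.98 FPKM in set 6 and 4.41 and 3.76 in set 2 (-0.64, SE 0.11, adjusted p = 0.00623). The libraries of set 6 did not overlap with those of set 2 in these 3 genes, nor in 5 others, so in 8 of the 10, beside 71.8% of all genes tested. INO80B was at 0.39 (adjusted p = 0.0315) and NFRKB at -0.30 (adjusted p = 0.0276). The call of INO80D ended with quantile normalization (-0.30) and that of NFRKB with median-of-ratios scaling (-0.12). INO80B lost its call without NC set 6 (0.39), NACER_ASO set 2 (0.26) or NACER_ASO set 6 (0.38), and with no filter on low values, and NFRKB without either NC library of sets 2 (-0.29) and 6 (-0.25), without NACER_ASO set 6 (-0.34) or without either library of set 5 (-0.30). The median of all genes moved from -0.039 to 0.13 with median-of-ratios scaling, which also called RUVBL1 higher in set 6 (0.35).

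**Figure D4:**
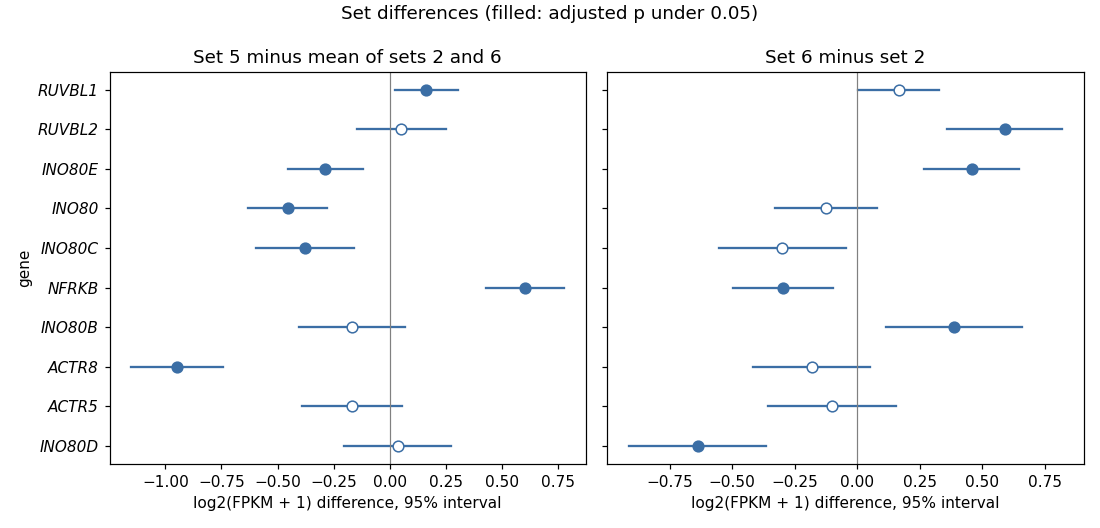
Set differences of the 10 subunits (y axis) on the log2(FPKM + 1) scale (x axis), with 95% confidence intervals of the limma fit, for set 5 minus the mean of sets 2 and 6 (left) and set 6 minus set 2 (right). Filled points passed the adjusted threshold, and ACTR8 at -0.95 and NFRKB at 0.60 lie farthest from 0 on the left.

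Another 6 subunits of the complex, some shared with other machines, were looked at as a list. MCRS1 and ACTL6A, an actin-related protein also found in SWI/SNF and TIP60, were higher in set 5, and TFPT and the deubiquitinase gene UCHL5 were lower. MCRS1 had 41.7 and 51.9 FPKM in NC and NACER_ASO of set 5 against 22.1 to 30.5 in the other 4 libraries (0.81, SE 0.067, adjusted p = 0.000140 in limma). ACTL6A was at 0.46 (adjusted p = 0.00279), TFPT at -0.65 (adjusted p = 0.00443) and UCHL5 at -0.56 (adjusted p = 0.00311). The F test among the sets called these 4 of the 6, and not the transcription factor gene YY1 (adjusted p = 0.148) or ACTB (adjusted p = 0.586), beside 81.2% of all genes. The set 5 contrast was called for the same 4 of the 6, beside 70.7% of all genes. Between NACER_ASO and NC, MCRS1 and ACTL6A were higher in all 3 sets, beside 27.2% of all genes. YY1 was lower in all 3, beside 11.0%, but nearly level in set 6, with 31.24 FPKM in NC and 31.22 in NACER_ASO. The median of the 6 subunits was 0.03, and the groups overlapped in each of them.

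The pattern of INO80C over the 6 libraries was compared with that of every other gene by the root mean square distance between log2(FPKM + 1) profiles, each centred on its own mean. The nearest were the antisense RNA RAB30-AS1 (distance 0.095), CTC-338M12.4 (0.096), the zinc finger gene ZNF587B (0.163), LPP (0.166) and VEGFA (0.168), the gene of an angiogenic growth factor. RAB30-AS1 had 21.5, 12.0 and 16.0 FPKM in NC sets 2, 5 and 6 and 11.9, 9.55 and 11.0 in NACER_ASO. VEGFA had 66.9, 43.8 and 49.8 FPKM in NC and 44.6, 35.7 and 41.5 in NACER_ASO. Both were highest in NC set 2 and lowest in NACER_ASO set 5, as INO80C was, a likeness for which they were picked. The median distance over all genes was 0.528. Of the other subunits INO80 was nearest, at 0.284 with 91 genes closer, and NFRKB farthest, at 0.557. The nearest tested genes beside INO80C on chromosome 18 were ZNF24 and GALNT1. ZNF24, 123860 bases away, differed by -0.20 ± 0.06 between NACER_ASO and NC (SD, n = 3 sets), and GALNT1, 156578 bases away on the other side, by 0.01 ± 0.13.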

How the data were processed

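The authors deposited FPKM values of RefSeq transcripts on hg19, 1 column per library, with symbols, lengths and loci, per the file headers. RNA came from a Trizol extraction, and 1 ug of it was the input of each TruSeq Stranded mRNA library, per the labels' protocols. The submitters' processing notes name StringTie 1.3.3b, Bowtie2 2.2.6 and FastQC 0.11.5, without their settings. These values are not counts and whole reads were not recovered from them, so no count model was fitted. FPKM values are scaled to a library's own total, so a large change in a few abundant genes shifts all others.

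FPKM was summed per symbol, genes reaching 1 FPKM in 3 or more libraries were kept, and log2(FPKM + 1) was fitted in limma 3.58.1 (R 4.3.3) with a mean-variance trend, two-sided, with Benjamini-Hochberg adjustment at 0.05 over all genes. The group was the only term for NACER_ASO against NC. Set differences were tested with set and group as terms. The scripts were tested on simulated data. Set numbers were taken as pairs, since deviations from group means correlated at 0.901, 0.966 and 0.898 in sets 2, 5 and 6.

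The genes and lists were chosen with earlier results of these data known. Named genes are the 10 subunits, 6 further subunits, the member of each other list with the smallest F test p, the 5 genes nearest to INO80C and its neighbours. The junction sequence came from GENCODE 29 (GRCh38), matched through RefSeq accessions (3 of 3 matched), and no GRCh38 coordinate was combined with an hg19 one. The alternatives tried were a pseudocount of 0.1, other filters and scalings, the block, and leaving out libraries. The sequence of the exons added in variant 1 is not reported here.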

Additional observations from a re-analysis of the deposited data

How the results depend on the processing

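The INO80C difference of -0.70 between NACER_ASO and NC ranged from -0.86 to -0.52 when 1 library was left out. It was -0.77 to -0.61 with the set number as a replicate block and 1 set left out, and -0.77 to -0.72 over the pseudocount and scalings. Since its groups did not overlap, leaving out libraries could not change its sign. The gene was also chosen from this contrast, so nothing is read from the sign being kept. All 3 INO80C transcripts are coding, so a sum over coding transcripts is the same sum. Transcript by transcript it was -1.04 ± 0.43 for variant 2, 0.66 ± 0.91 for variant 1 and 0.39 ± 0.47 for variant 3 (SD, n = 3 sets). That of variant 3 rests mostly on set 2 and on few fragments. Variant 1 differed by 1.53, 0.72 and -0.28 in sets 2, 5 and 6, with few fragments in NC sets 2 and 5. INO80C minus the median of the other 9 subunits was -0.67, and -0.79 to -0.45 without 1 library. With 1 library of each group in a set, a replicate block cannot move these mean differences (-0.70 and -0.67), only their errors. Limma called 0 genes between the groups in every setting that kept all 3 sets, and in each unpaired fit without 1 library. With the block it called 3, 14 and 58 genes without set 2, 5 and 6, where the cause was not tested. With no library left out, genes called among the sets ranged from 7649 of 9418 with a filter of 5 FPKM to 14605 of 23824 with no filter. Subunits called ranged from 7 of 10 with median-of-ratios scaling, beside 11283 of 13576 genes, to 9 of 10. The filter of 5 FPKM left 9 subunits, of which 8 were called. Counts without 1 library are not given, since a set then holds 1 library. The set call of INO80D, INO80E, ACTR8, RUVBL2 and NFRKB by the F test held in every setting run. INO80C lost it with both scalings, without NC set 5 and with set as the only term (adjusted p = 0.382), INO80 with median-of-ratios scaling and without NACER_ASO set 5, INO80B in 4 settings and RUVBL1 in 6. Summed with its readthrough, INO80B was not moved beyond its spread. The depth is not known exactly, and values near 1 FPKM rest on few fragments, most of all in NC set 2.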

Other observations

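Other chromatin remodellers and partners of the complex also differed among the sets. The F test called 5 of 8 genes of the SRCAP complex, 11 of 12 of the TIP60 complex, 16 of 21 of the SWI/SNF complexes, 9 of 13 ISWI and CHD remodellers, and 4 of 7 R2TP and prefoldin-like partners of RUVBL1 and RUVBL2, beside 81.2% of all genes tested. The SWI/SNF subunit gene SMARCD3 had 2.02 and 2.38 FPKM in NC and NACER_ASO of set 5 and averaged 10.7 in set 2 and 8.98 in set 6 (set 5 difference -1.76, adjusted p = 3.4e-05 in limma). CHD3, an ATPase of the NuRD complex, averaged 40.0 FPKM in set 5 against 17.6 and 17.9 (1.13, adjusted p = 4.6e-05 in limma). EPC1, a TIP60 subunit gene, averaged 28.8 FPKM in set 2, 11.7 in set 5 and 11.8 in set 6. YEATS4, shared by SRCAP and TIP60, averaged 20.5, 13.8 and 16.9 FPKM, and PDRG1 58.8, 33.8 and 51.8 FPKM in sets 2, 5 and 6. Between NACER_ASO and NC the medians of these lists lay between -0.01 and 0.04, beside 0.04 over all genes.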
